A study of Mus musculus with 7 samples.

Results

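The genes described here encode the subunits of the mitochondrial respiratory chain and of ATP synthase, together with cytochrome c. They were chosen by symbol alone, from the Nduf subunits of complex I, Sdha to Sdhd of complex II, the Uqcr genes of complex III, the Cox4 to Cox8 families of complex IV, the Atp5 genes of complex V, Cycs, and the mRNA genes of mitochondrial DNA, whose symbols start with mt-Nd, mt-Co, mt-Cytb or mt-Atp. Symbols of pseudogenes and of predicted Gm genes were left out, and a gene had to average at least 1 TPM (transcript level scaled for gene length and for the total of its library) over the 4 RNA libraries. Of 110 symbols that match these names, 8 are pseudogene symbols and 5 fell below the limit, which leaves 97 of the 13929 genes that reach it and of the 53715 genes in the deposited table. Of these 97 members, 84 are nuclear (39 in complex I, 4 in complex II, 8 in complex III, 15 in complex IV, 17 in complex V and Cycs) and 13 are encoded by mitochondrial DNA (7 in complex I, 1 in complex III, 3 in complex IV and 2 in complex V). The 5 below the limit were Cox6a2, Cox7b2, Cox8b, Cox8c and Ndufa11b.

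Complexes I and II pass electrons from NADH and succinate to ubiquinone, complex III passes them on to cytochrome c, and complex IV passes them to oxygen. Complexes I, III and IV pump protons, and complex V uses the proton gradient to make ATP. Every one of these complexes except complex II is built from subunits of both genomes: mitochondrial DNA is read as long transcripts that are cut into single mRNAs, while the nuclear genes are transcribed one by one and their proteins are imported. Cells on the way to pluripotency are known to shift their energy metabolism away from respiration, which is why the chain is of interest in reprogramming.

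R406, the active form of the drug fostamatinib and an inhibitor of the kinase Syk, was compared with its solvent DMSO in mouse embryonic fibroblasts during the first stage of chemical reprogramming. The fibroblasts came from embryonic day 13.5 embryos of the OG2 strain, CBA-Tg(Pou5f1-EGFP)2Mnn/J, which carries a green fluorescent Pou5f1 reporter, and were used at the third passage. RNA-seq covered 2 libraries of R406-treated cells and 2 of DMSO-treated cells. CUT&Tag, which maps where a chosen protein sits on DNA, covered 1 library of R406-treated cells and 1 of DMSO-treated cells. All cells shared the Stage 1 medium, with bFGF, valproic acid (VPA), CHIR99021, 616452, Parnate, forskolin, AM580, EPZ004777 and vitamin C. For the RNA libraries the protocol is given as 12 days. The CUT&Tag cells also carried lentiviral rtTA and a TetO-driven Flag-Nfatc1 and were treated for 4 days, so the protein mapped is introduced and not the cells' own. The sources used here give neither the concentration of R406 nor the day of RNA harvest. They do not state either whether the 2 libraries of a group were separate cultures, and the p-values then reflect a spread between libraries that may be technical.

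All 10 fibroblast markers checked were present, with summed levels of 5678 and 3862 TPM in the R406 libraries and 4521 and 3528 TPM in the DMSO libraries. Single fibroblast markers moved in both directions. By the test used below Col3a1 was called higher and Fn1 lower with R406, and 3 of the 10 averaged higher and 7 lower on a log2 scale. Markers of other cell types moved between the same groups too. The 12 macrophage markers summed to 21.7 and 23.6 TPM with R406, where Ptprc was listed at 0, against 285 and 240.0 TPM with DMSO. By the test used below, 8 of the 9 that reached 1 TPM were called lower, where 4.05% of all genes tested were. Of these, Csf1r, Tyrobp, Fcer1g, C1qa, C1qb and C1qc averaged under 1 TPM with R406. They reached the limit only through the DMSO libraries, where they are high, so their place among the genes tested depends on the difference itself. The 6 epithelial markers summed to 715 and 409 TPM with R406 against 77.8 and 99.9 TPM with DMSO. All 6 were called higher (4.26% of all genes tested). The 4 endoderm markers summed to 234 and 127 TPM with R406 against 28.5 and 35.2 TPM with DMSO. Called higher were 3 of 4 (4.26% of all genes tested). The part of these changes in the results below was not tested, and in such bulk samples fewer cells of a type and less RNA per cell cannot be told apart. TPM has a fixed sum per library and the read depth behind it is unknown.

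The promoters of many respiratory chain genes are known to hold the palindromic site of the activator NRF1, and Cycs is the textbook case. Among 84 nuclear members 67 had a promoter in the RefSeq table for GRCm38.p6, which gives 250 bases before and 50 bases after the start of transcription. The NRF1 core GCGCATGCG, searched on both strands, occurred in 9 of these 67 promoters (13.4%), in 4.06% of the promoters of all genes tested and in 1.95% of all promoters in the table. The 9 belonged to Ndufa8 and Ndufa11 of complex I, Uqcr11 and Uqcrc1 of complex III, Cox6a1 of complex IV, Atp5g2, Atp5k and Atp5l of complex V, and Cycs. In Uqcrc1 the core lay after the start. The sites of 7 others are printed below because they come from 4 of the 5 complexes and share the same letters. Each is given 5′ to 3′ on the strand of its gene, with the core or its reverse complement in capitals and up to 12 bases on each side.
Ndufa8 (chr2:36049327-36049359, minus strand, core starting 9 bases before the start): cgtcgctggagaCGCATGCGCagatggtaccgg
Ndufa11 (chr17:56717690-56717722, plus strand, 60 bases before): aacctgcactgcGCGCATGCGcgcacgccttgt
Uqcr11 (chr10:80406806-80406838, minus strand, 5 bases before): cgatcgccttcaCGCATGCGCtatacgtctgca
Cox6a1 (chr5:115349100-115349132, minus strand, 162 bases before): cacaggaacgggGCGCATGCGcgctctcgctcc
Atp5g2 (chr15:102671069-102671101, minus strand, 42 bases before): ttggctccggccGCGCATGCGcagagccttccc
Atp5k (chr5:108434429-108434461, minus strand, 50 bases before): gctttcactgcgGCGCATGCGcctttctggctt
Atp5l (chr9:44920963-44920992, minus strand, 241 bases before): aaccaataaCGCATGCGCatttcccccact
The 250 bases before the start of Cycs (chr6:50566570-50566819, minus strand) hold the core 61 bases before the start:
Cycs: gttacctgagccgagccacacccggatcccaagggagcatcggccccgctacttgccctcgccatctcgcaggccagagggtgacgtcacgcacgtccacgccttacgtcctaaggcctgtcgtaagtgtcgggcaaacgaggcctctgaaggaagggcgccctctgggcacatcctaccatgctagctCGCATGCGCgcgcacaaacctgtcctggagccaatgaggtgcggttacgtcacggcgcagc
The CCGGAAG core of ETS factors such as GABP occurred in 16 of the 67 promoters (23.9%), against 20.0% of those of tested genes and 9.93% of all promoters. The YY1 core AAGATGGCG occurred in 7 (10.4%), against 3.52% and 1.64%, and the NFAT core TGGAAA in 11 (16.4%), against 19.2% and 23.9%. None of these motifs contains another, and a match describes the letters only.

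On a log2 scale the mRNAs of mitochondrial DNA averaged lower in R406-treated than in DMSO-treated cells for all 13 genes, one of which, mt-Nd3, had nearly equal levels, while 67 of 84 nuclear subunit mRNAs averaged higher, most by little. R406 was compared with DMSO by limma on log2(TPM + 1) over all 13929 genes, with Benjamini-Hochberg adjustment and a threshold of 0.05, and a log2 change below is R406 minus DMSO on that scale. Of the 97 members, 2 were called in either direction, against 8.31% of all genes tested, and 14 had an unadjusted limma p under 0.05, against 26.8%. Called higher were 2 of 84 nuclear members, where 4.26% of all genes tested were called higher, and 0 of 84 were called lower, where the share was 4.05%. At an unadjusted p under 0.05, limma gave 8 nuclear members higher (12.3% of all genes) and 0 lower (14.5%). None of the 13 mitochondria-encoded members was called in either direction by limma, and 6 were lower and 0 higher at an unadjusted p under 0.05. The median log2 change was −0.81 over the 13 mitochondria-encoded members and 0.22 over the 84 nuclear members, against −0.02 over all genes tested. Without R406 replicate 2 the nuclear median was 0.14 against 0.09 over all genes, and without DMSO replicate 1 it was 0.14 against 0.04, so the distance between nuclear members and all genes depends on these libraries. The log2 change was above 0 for 67 of 84 nuclear members and for 0 of 13 mitochondria-encoded members, with 48.8% above 0 among all genes. Both R406 libraries lay above both DMSO libraries for 36 nuclear members, where 25.9% of all genes do so, and below them for 5, where 30.2% do so. Both R406 libraries lay below both DMSO libraries for 10 of the 13 mitochondria-encoded members.

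**Figure D1:**
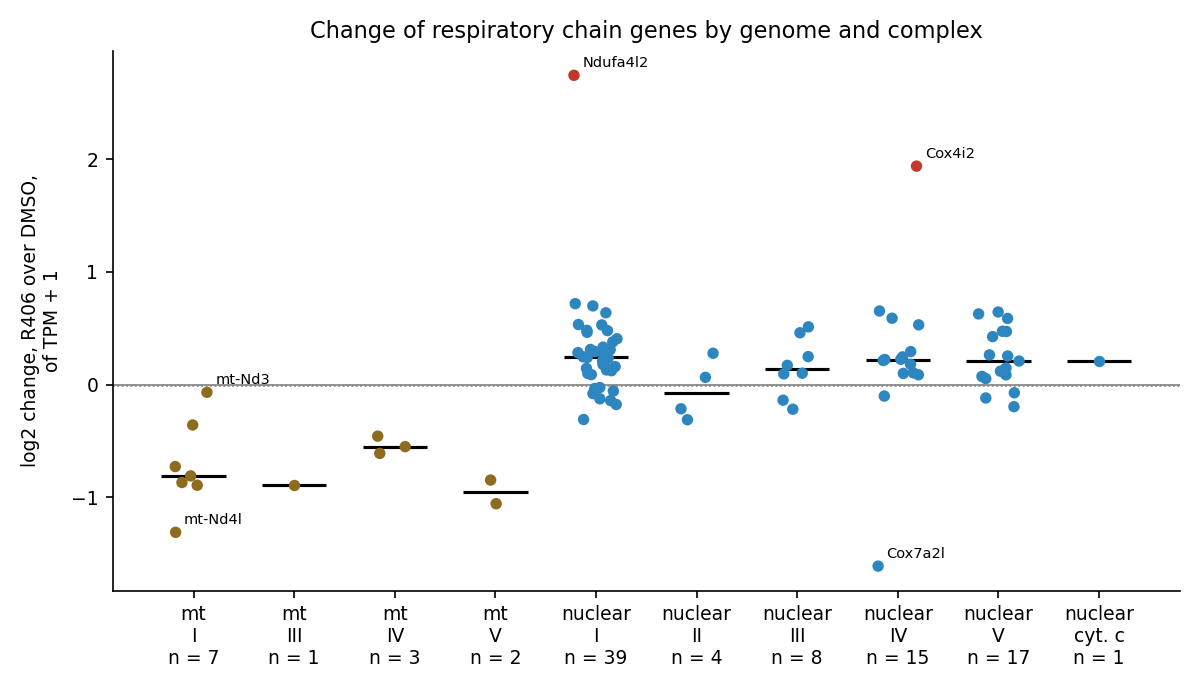
Log2 change of TPM + 1, R406 over DMSO, for each of the 97 members (points), by genome (mt, mitochondria-encoded) and complex, with the median of each class as a black bar, all genes' median as a dotted line and zero as a grey line. The classes of mitochondria-encoded genes have medians between −0.95 and −0.55, the nuclear classes lie between −0.07 and 0.25, and the 2 red points, Ndufa4l2 and Cox4i2, are the members that were called.

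Among the mitochondria-encoded subunits of complex I, mt-Nd5, a proton-pumping subunit of the membrane arm, had 1695 and 1826 TPM in R406-treated cells, against 2765 and 3443 TPM in DMSO-treated cells. Both R406 libraries lay well below both DMSO libraries, and its log2 change of −0.81 ± 0.21 (SE, n = 2 each) had the smallest adjusted p of the 13 genes, at 0.0879 by limma. The other large membrane subunits gave similar values. For mt-Nd1, at the junction of the membrane arm with the matrix arm, the levels were 5781 and 7110 TPM with R406, against 10054 and 11202 TPM with DMSO. For mt-Nd2, a pumping subunit, they were 3424 and 5180 TPM with R406, against 6726 and 8789 TPM with DMSO. For mt-Nd4, likewise a pumping subunit, they were 2428 and 3620 TPM with R406, against 4714 and 6427 TPM with DMSO. In these 3 genes too the groups did not overlap, with log2 changes of −0.73, −0.87 and −0.89.

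The gene mt-Nd6 is the only one of the 13 that lies on the light strand of mitochondrial DNA. It had 4228 and 4393 TPM in R406 libraries, against 5339 and 5714 TPM in DMSO libraries, a log2 change of −0.36. Its levels lay closer together than those of the genes on the other strand, and the groups did not overlap. The library kit does not mark strand, so reads of the opposite strand over mt-Nd6 cannot be told apart from its own. It also shares 14 bases with mt-Nd5. These values are therefore not a measure of light-strand mRNA alone. The small membrane subunit gene mt-Nd3 had 3581 and 9139 TPM with R406, against 4256 and 8452 TPM with DMSO. Here the R406 libraries lay on either side of the DMSO libraries, and the log2 change of −0.07 turned to 0.61 without R406 replicate 1 and to 0.43 without DMSO replicate 2. The overlapping gene mt-Nd4l had 452 and 1201 TPM with R406, against 1202 and 2781 TPM with DMSO, so the higher R406 library and the lower DMSO library were less than 1 TPM apart. Its log2 change of −1.31, the lowest of the 13, had an adjusted limma p of 0.259, and without R406 replicate 2 it was called lower, at −2.01.

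Cytochrome b, the only mitochondria-encoded subunit of complex III, is encoded by mt-Cytb, which had 5762 and 7764 TPM in R406-treated cells, against 11415 and 13548 TPM in DMSO-treated cells. The groups did not overlap, and the log2 change was −0.89 with an adjusted limma p of 0.0998. Complex IV takes its catalytic core from mitochondrial DNA. Its largest subunit gene, mt-Co1, had the highest mean TPM of all 13929 genes tested, with 13500 and 17240 TPM with R406, against 20924 and 25918 TPM with DMSO. The levels of mt-Co2, which receives electrons from cytochrome c, were 8314 and 11251 TPM with R406, against 13072 and 15343 TPM with DMSO. In both genes the groups did not overlap, with log2 changes of −0.61 and −0.55. For mt-Co3 they were 7355 and 10753 TPM with R406, against 10067 and 14804 TPM with DMSO, and here the groups overlapped (log2 change −0.46).

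For ATP synthase, mt-Atp6, which encodes the proton channel subunit, had 1238 and 1649 TPM in R406 libraries, against 2419 and 2730 TPM in DMSO libraries, a log2 change of −0.85 with an adjusted limma p of 0.0959 and no overlap. The short gene mt-Atp8 had 2097 and 4573 TPM in R406 libraries, against 4373 and 9486 TPM in DMSO libraries. These overlapped, since each group spanned a more than 2-fold range, and the log2 change was −1.06.

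**Figure D2:**
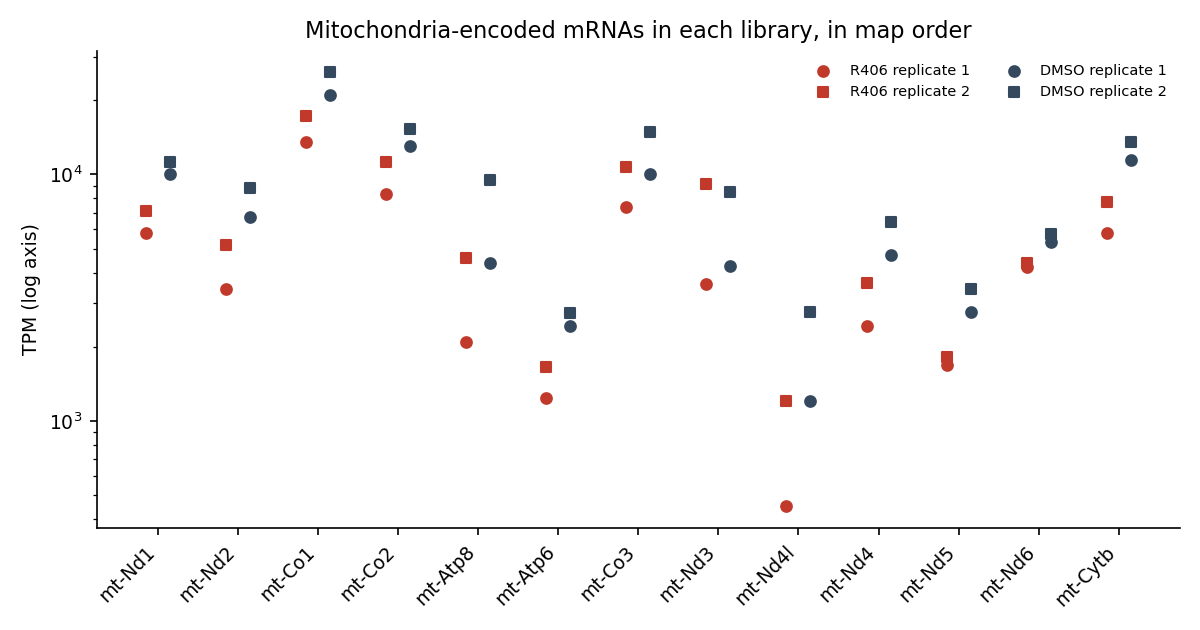
TPM on a log axis of the 13 mitochondria-encoded mRNAs in each library, in their order on mitochondrial DNA, with R406 (red) left of DMSO (dark) and replicate 1 as circles and replicate 2 as squares. Both R406 libraries lie below both DMSO libraries in 10 genes, and the exceptions are mt-Nd3, mt-Atp8 and mt-Co3.

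Within each group, replicate 2 was above replicate 1 for all 13 mitochondria-encoded genes, and the 3 shortest genes stood apart in the size of this gap. The 3 genes under 500 bases in RefSeq, mt-Atp8 (204 bases), mt-Nd4l (297 bases) and mt-Nd3 (348 bases), were 2.18 to 2.66 times as high in replicate 2 as in replicate 1 with R406, and 1.99 to 2.31 times as high with DMSO. The other 10 genes, from 519 bases upward, were 1.04 to 1.51 times as high with R406 and 1.07 to 1.47 times as high with DMSO. Among them mt-Nd6, the shortest, had the smallest gap. Over all 13 genes, which share their libraries, the gap had a Spearman correlation with length of −0.49 with R406 and −0.29 with DMSO. In these 3 short genes the replicates of a group thus lay further apart than the means of R406 and DMSO did in any of the 10 longer ones. Between both groups the log2 gap of replicate 2 over replicate 1 had a Pearson correlation of 0.94 over the 13 genes, 0.70 over the 84 nuclear members and 0.56 over all tested genes, where the genes of a library share its preparation and depth. Whether equal numbers mark a shared culture or a shared preparation is not stated.

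**Figure D3:**
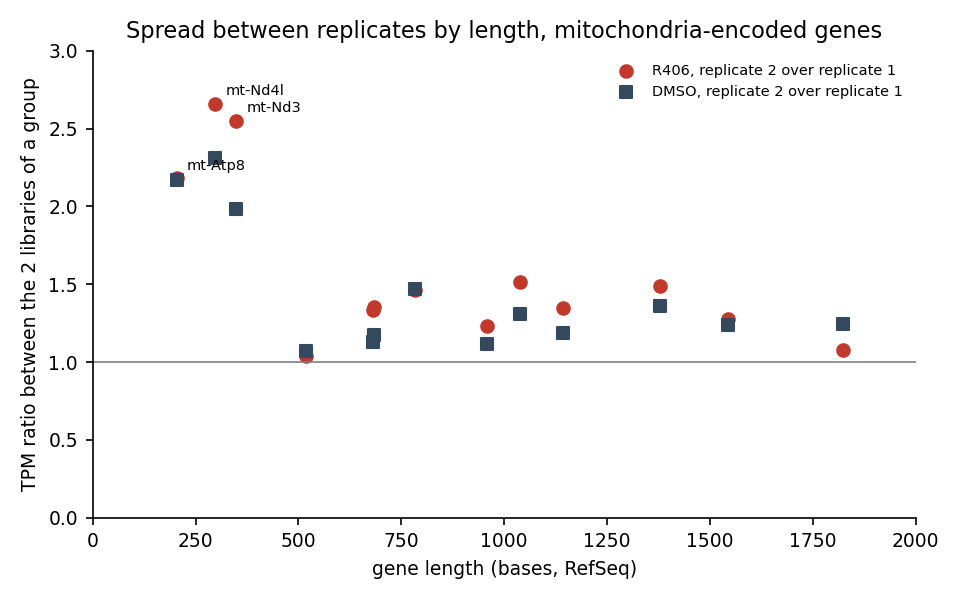
TPM in replicate 2 divided by TPM in replicate 1 for each mitochondria-encoded gene, for R406 (red) and DMSO (dark), against gene length in bases, with a line at 1. The 3 labelled genes under 500 bases lie between 1.99 and 2.66, and the 10 longer genes lie between 1.04 and 1.51.

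Part of mitochondrial DNA has a long copy in the nuclear genome, on mouse chromosome 1, annotated as Gm10925, Gm28437, Gm28438, Gm28439, Gm28661, Gm29215 and Gm29216. Reads of such near-identical sequence can be split between the copies, so the levels of the mitochondria-encoded members are uncertain. These copies held 3.96% and 6.24% of all TPM in R406 libraries, against 5.63% and 7.97% in DMSO libraries, while the 13 members held 5.99% and 8.57% with R406, against 9.73% and 12.9% with DMSO. Counted together they held 9.94% and 14.8% with R406, against 15.4% and 20.8% with DMSO. RefSeq synonyms were looked up for 1 copy only, Gm10925 (chr1:24613971-24614651, 681 bases), which is a copy of mt-Atp6 by these names. It had 6190 and 10469 TPM with R406, against 11229 and 17441 TPM with DMSO, several times the level listed for mt-Atp6 itself. With both added, the levels were 7428 and 12118 TPM with R406, against 13648 and 20172 TPM with DMSO, and the groups again did not overlap. Over the 6 copies that reached 1 TPM the median log2 change was −0.50, and 0 of 6 were called (8.31% of all genes tested). Entirely lower with R406 were 3 of 6 (30.2% of all genes tested), and Gm29215 was listed at 0. The mitochondrial rRNA genes mt-Rnr1 and mt-Rnr2 were low, at a sum of 37.0 and 51.6 TPM with R406 and 46.3 and 67.0 TPM with DMSO, and overlapped. The mitochondrial tRNA genes summed to 7350 and 17140 TPM with R406, against 7581 and 13357 TPM with DMSO, and overlapped too, with a mean 1.17 times as high with R406.

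Since TPM has a fixed sum, mitochondria-encoded and nuclear members were also set against each other within each library. The ratio of their summed TPM was 1.73 and 2.15 in R406-treated cells, against 3.24 and 3.94 in DMSO-treated cells, and no R406 library reached a DMSO library. On the log2 scale the ratio averaged 0.95 ± 0.22 with R406 and 1.84 ± 0.20 with DMSO (SD, n = 2 each), a difference of −0.89. Left-out libraries moved that difference between −1.05 and −0.73. With the chromosome 1 copies added to the mitochondria-encoded sum, the ratio was 2.87 and 3.72 with R406, against 5.11 and 6.38 with DMSO, a log2 difference of −0.80. These ratios are given as values, and no test was run on them.

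The ratio was lower with R406 in each complex that has subunits of both genomes. In complex I it was 2.31 and 3.16 with R406, against 4.42 and 5.44 with DMSO. In complex III it was 1.38 and 1.42 with R406, against 3.19 and 3.00 with DMSO, the closest pair of libraries in each group. In complex IV it was 2.76 and 3.18 with R406, against 4.53 and 5.52 with DMSO. In complex V, where mitochondrial DNA encodes few subunits, it was 0.340 and 0.559 with R406, against 0.829 and 1.39 with DMSO. In all of them both R406 libraries lay below both DMSO libraries.

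**Figure D4:**
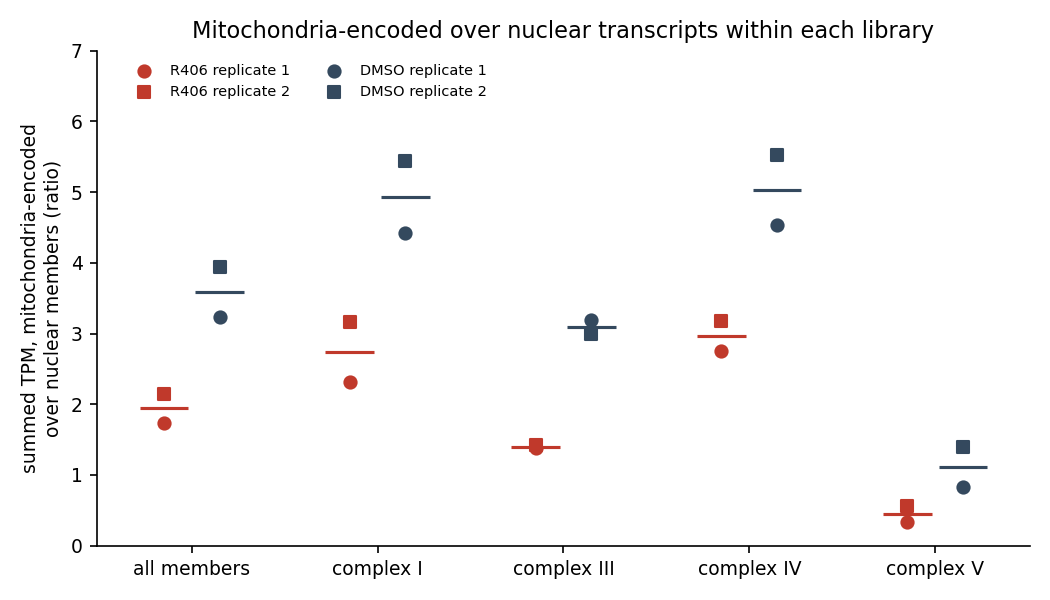
Summed TPM of mitochondria-encoded members over summed TPM of nuclear members in each library (circles replicate 1, squares replicate 2, bars the mean of 2), for all members and for complexes I, III, IV and V, with R406 (red) left of DMSO (dark). In each class both R406 libraries are below both DMSO libraries, with overall ratios of 1.73 and 2.15 against 3.24 and 3.94.

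Among the nuclear members, summed TPM lay higher in both R406 libraries than in both DMSO libraries for complexes I, IV and V. In complex I the 39 nuclear subunits summed to 9338 and 10265 TPM with R406, against 7923 and 8598 TPM with DMSO. In complex II the 4 subunits summed to 581 and 509 TPM with R406, against 552 and 525 TPM with DMSO, which overlapped. In complex III the 8 summed to 4171 and 5468 TPM with R406, against 3582 and 4520 TPM with DMSO, which overlapped too. In complex IV the 15 summed to 10584 and 12358 TPM with R406, against 9730 and 10148 TPM with DMSO. In complex V the 17 summed to 9820 and 11129 TPM with R406, against 8191 and 8767 TPM with DMSO. The shares of the complexes within the nuclear sum stayed close between the groups, for example 27.0% and 25.8% in complex I with R406, against 26.3% and 26.3% with DMSO. All nuclear members together held 3.46% and 3.98% of all TPM with R406, against 3.01% and 3.27% with DMSO. Cytosolic ribosomal protein mRNAs, another set of short and abundant transcripts, held 19.6% and 22.6% with R406, against 14.2% and 15.7% with DMSO. The nuclear members relative to these were lower with R406, at ratios of 0.177 and 0.176, against 0.211 and 0.208 with DMSO.

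Ndufa4l2, a paralogue of Ndufa4 that is known to be induced by low oxygen, was 1 of the 2 nuclear members called higher by limma. It had 9.72 and 8.93 TPM in R406-treated cells, against 0.459 and 0.625 TPM in DMSO-treated cells, a log2 change of 2.74 ± 0.19 (SE, n = 2 each) with an adjusted limma p of 0.0117. It reached the limit of 1 TPM only through the R406 libraries, where it is high, so its place among the genes tested depends on the difference itself. Cox4i2, the alternative isoform of the regulatory subunit 4 of complex IV, which is best known from lung and from low oxygen, had 17.8 and 14.4 TPM with R406, against 3.36 and 3.52 TPM with DMSO. Its log2 change was 1.94 ± 0.20 (SE, n = 2 each), with an adjusted limma p of 0.0165. In both genes the groups were far apart, and each stayed called by limma with any one library left out. Without a filter on low values both had an adjusted limma p of 0.0593. The adjusted p ran from 0.00172 to 0.0593 over 13 alternatives for Ndufa4l2, and from 0.00419 to 0.0593 over 14 for Cox4i2.

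Both genes share bases with a neighbour, and the library kit does not mark strand, so reads in the shared stretch cannot be told apart. In GRCm38.p6, Ndufa4l2 (chr10:127509274-127517154) shares 32 bases with Shmt2, which had 43.7 and 27.4 TPM with R406, against 27.8 and 19.6 TPM with DMSO. Cox4i2 (chr2:152753916-152765039) shares 6308 bases with Bcl2l1, which had 35.9 and 39.0 TPM with R406, against 109 and 36.1 TPM with DMSO. The groups overlapped for Bcl2l1, and DMSO replicate 1 alone was high. The part of shared reads in the values of Cox4i2 was not tested.

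The main isoforms of the same positions were far more abundant and were not called. Ndufa4, now known to belong to complex IV although its name places it in complex I, had 666 and 898 TPM with R406, against 463 and 662 TPM with DMSO. Ndufa4l2 thus stood at 1.46% and 0.994% of the level of Ndufa4 with R406, against 0.0991% and 0.0944% with DMSO. Cox4i1 had 1054 and 1215 TPM with R406, against 1189 and 788 TPM with DMSO, which overlapped. Cox4i2 stood at 1.69% and 1.18% of Cox4i1 with R406, against 0.282% and 0.446% with DMSO, so the main isoform remained in large excess.

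**Figure D5:**
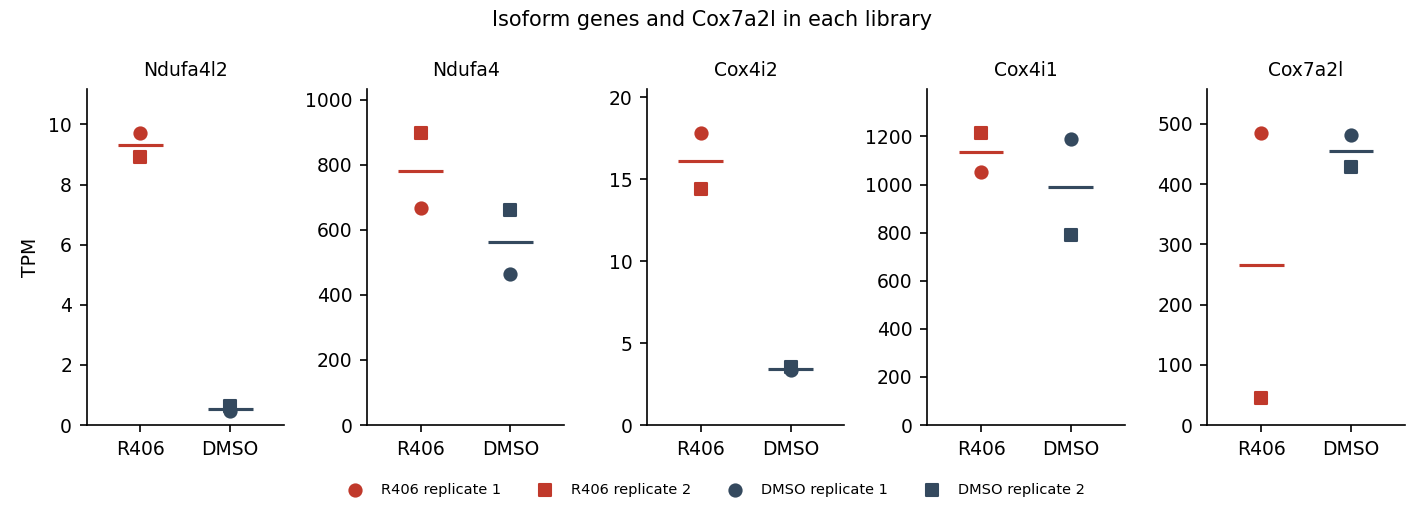
TPM of Ndufa4l2, Ndufa4, Cox4i2, Cox4i1 and Cox7a2l in each library, with R406 (red) left of DMSO (dark), replicate 1 as circles, replicate 2 as squares and the mean of 2 as a bar. Each panel has its own axis from 0. Ndufa4l2 and Cox4i2 separate the groups, while R406 replicate 2 alone is low for Cox7a2l, at 44.7 TPM.

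The other isoform groups of complex IV gave no call. Cox7a1, the heart and skeletal muscle isoform, had 14.2 and 25.8 TPM with R406, against 14.1 and 20.1 TPM with DMSO, and Cox7a2, its widely expressed counterpart, had 570 and 758 TPM with R406, against 455 and 631 TPM with DMSO. Cox6b1 had 795 and 972 TPM with R406, against 765 and 895 TPM with DMSO. Its isoform Cox6b2, known from testis, had 276 and 295 TPM with R406, against 270 and 262 TPM with DMSO. Neither was called. Cox6a1 was the most abundant nuclear member, at 2608 and 2484 TPM with R406, against 2340 and 2056 TPM with DMSO, whereas its muscle isoform Cox6a2 stayed under 1 TPM in all 4 libraries. Cox8a had 1412 and 1315 TPM with R406, against 1496 and 1428 TPM with DMSO. The muscle isoform Cox8b stayed under 1 TPM, and Cox8c was listed at 0 throughout.

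Cox7a2l, also called SCAF1, which links complexes III and IV in supercomplexes, stood apart in 1 library. It had 485 and 44.7 TPM with R406, against 481 and 429 TPM with DMSO. Only R406 replicate 2 was low, 9.59-fold under the lowest of the other libraries. Its log2 change of −1.61 had an adjusted limma p of 0.42, became 0.10 without that library and was called lower, at −3.32, without R406 replicate 1. It was 1 of 3 genes with over 30 TPM in DMSO replicate 1 for which R406 replicate 2 lay more than 6-fold under every other library. The others were Junb and Gm10095, both listed at 0 there. The cause of these low values was not tested.

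Accessory subunits of complex I had the smallest adjusted limma p among the nuclear members that were not called. Ndufb2, a small subunit of the membrane arm, had 98.1 and 92.4 TPM in R406-treated cells, against 56.9 and 58.1 TPM in DMSO-treated cells. Its log2 change of 0.72 had an adjusted limma p of 0.0737, and it was called higher under median centring. Ndufc2, also of the membrane arm, had 511 and 489 TPM with R406, against 311 and 332 TPM with DMSO (log2 change 0.64, adjusted limma p 0.0998). Ndufs6, of the matrix arm, had 353 and 290.3 TPM with R406, against 219 and 177 TPM with DMSO (log2 change 0.70, adjusted limma p 0.123). In all 3 the groups did not overlap, but none was called. The levels of Ndufs6b, Ndufb4c and Cox6c2, near copies of Ndufs6, Ndufb4 and Cox6c, are uncertain, since reads can be split between copies. Ndufs6b had 26.2 and 6.73 TPM with R406, against 16.6 and 5.13 TPM with DMSO. Ndufb1-ps, left out for its pseudogene symbol, was listed at 168 and 439 TPM with R406, against 132 and 265 TPM with DMSO.

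Ndufa1, an abundant accessory subunit, had 663 and 863 TPM with R406, against 767 and 833 TPM with DMSO, and the groups overlapped. The 7 nuclear core subunits, which carry the flavin and the iron-sulphur clusters, lay on both sides of DMSO. Ndufs1, with most of the clusters of the NADH-oxidising module, was the only nuclear complex I subunit entirely below DMSO, at 43.0 and 43.5 TPM with R406, against 53.4 and 54.3 TPM with DMSO (log2 change −0.31). Ndufs8 had 144 and 105 TPM with R406, against 92.5 and 77.6 TPM with DMSO (0.53). Ndufs7 had 219 and 128 TPM with R406, against 175 and 94.7 TPM with DMSO (0.38), and overlapped. Over all 14 core subunits, nuclear and mitochondria-encoded, 0 were called (8.31% of all genes were) and the median log2 change was −0.23. Of the 14, 3 lay entirely above and 7 entirely below DMSO (25.9% and 30.2% of all genes). The 7 include 6 of the mitochondria-encoded subunits.

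The 4 members of complex II, which has no mitochondria-encoded subunit, lay on both sides of DMSO. The membrane anchor Sdhc had 84.3 and 80.4 TPM with R406, against 102 and 103 TPM with DMSO, and the catalytic flavoprotein Sdha had 108 and 91.1 TPM with R406, against 122 and 109 TPM with DMSO. Both were entirely lower with R406, with log2 changes of −0.31 and −0.21. The other anchor, Sdhd, had 206 and 183 TPM with R406, against 158 and 162 TPM with DMSO (0.28), and was entirely higher. The iron-sulphur subunit Sdhb, at 183 and 154 TPM with R406 against 169 and 152 TPM with DMSO, overlapped. None of the 4 was called.

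In complex III the small subunits were the most abundant. Uqcrq, a membrane subunit, had 817 and 772 TPM with R406, against 609 and 508 TPM with DMSO (log2 change 0.51), with no overlap. Uqcr11 had 814 and 1447 TPM with R406, against 648 and 960 TPM with DMSO, and Uqcr10 had 1105 and 1394 TPM with R406, against 948 and 1282 TPM with DMSO. Both overlapped, as did Uqcrh, the hinge protein, at 654 and 938 TPM with R406, against 543 and 801 TPM with DMSO. The Rieske iron-sulphur protein Uqcrfs1 had 154 and 147 TPM with R406, against 167 and 165 TPM with DMSO, the only complex III member of the nucleus entirely lower. Cytochrome c1, which the name rule does not cover, had 238 and 166 TPM for Cyc1 with R406, against 170 and 149 TPM with DMSO.

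In complex IV, Cox7c, a small membrane subunit, had 1130 and 1777 TPM with R406, against 764 and 1062 TPM with DMSO (log2 change 0.65). Cox7b, likewise small, had 488 and 711 TPM with R406, against 323 and 474 TPM with DMSO (0.59). In both genes the groups did not overlap, and neither was called. With Ndufa4 and Ndufa4l2 counted with complex IV, 9 of 17 members lay entirely above and 1 below DMSO (25.9% and 30.2% of all genes), and the median log2 change of 0.22 was the same to 2 decimals.

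In complex V, 5 of 17 members (29.4%) lay entirely above DMSO, a share near the 25.9% of all genes, and 0 lay below, against 30.2%. Atp5k, subunit e at the dimer interface, had 752 and 825 TPM with R406, against 576 and 560 TPM with DMSO (log2 change 0.47). Atp5e, the epsilon subunit of the central stalk, had 1438 and 1987 TPM with R406, against 966 and 1210 TPM with DMSO (0.64). Atp5j2, subunit f, had 587 and 659 TPM with R406, against 295 and 550 TPM with DMSO (0.63). In these 3 the groups did not overlap, and none was called. The 3 genes for the same ring subunit c had log2 changes of 0.21 (Atp5g1), 0.25 (Atp5g2) and 0.05 (Atp5g3). The catalytic subunits differed little, with 953 and 707 TPM for Atp5b with R406, against 964 and 773 TPM with DMSO, and 420 and 317 TPM for Atp5a1 with R406, against 455 and 345 TPM with DMSO. Cycs, the electron carrier between complexes III and IV, had 107 and 111 TPM with R406, against 90.9 and 97.5 TPM with DMSO (0.21), without overlap or call.

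The genes that build and supply the chain were described from lists. Of 15 complex I assembly factors, 0 were called by limma (8.31% of all genes tested were) and the median log2 change was 0.04. Tmem126b, with a log2 change of −0.56, was the 1 of them with an unadjusted limma p under 0.05. The list for assembly of complexes II to V and cytochrome c has 34 genes, among them Cyc1, which encodes a subunit of complex III. Of these 34, 0 were called higher and 1 was called lower (4.26% and 4.05% of all genes tested), and the median was −0.02. That one was Ttc19, which helps to mature complex III and had 12.1 and 12.6 TPM with R406, against 28.8 and 27.9 TPM with DMSO (log2 change −1.13, adjusted limma p 0.0303). Tmem70, an assembly factor of ATP synthase, had 55.0 and 59.1 TPM with R406, against 92.1 and 103 TPM with DMSO, with an adjusted limma p of 0.0713.

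Genes for upkeep and transcription of mitochondrial DNA gave no call among 16 (8.31% of all genes tested were called). Their median log2 change was 0.14, with 7 entirely above and 4 entirely below DMSO (25.9% and 30.2% of all genes). Tfam, which packages and helps to transcribe mitochondrial DNA, had 15.4 and 12.7 TPM with R406, against 11.1 and 11.1 TPM with DMSO. The RNA polymerase Polrmt had 15.7 and 6.99 TPM with R406, against 14.1 and 9.98 TPM with DMSO. Lrpprc, which stabilises mitochondrial mRNAs, had 15.3 and 13.9 TPM with R406, against 21.0 and 19.2 TPM with DMSO (log2 change −0.43), and its partner Slirp had a log2 change of 0.60. None of these was called. Of 9 tested nuclear regulators of respiratory genes 0 were called (8.31% of all genes tested). Among the 9, Nrf1 had 6.26 and 6.41 TPM with R406, against 5.58 and 6.08 TPM with DMSO. Ppargc1a had 1.04 and 1.20 TPM with R406, against 0.954 and 1.61 TPM with DMSO.

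The 78 mitochondrial ribosomal proteins, which translate the 13 mRNAs, resembled the nuclear subunits in their values. Of the 78, 0 were called (8.31% of all genes were). At an unadjusted limma p under 0.05, 12 were higher and 1 lower (12.3% and 14.5% of all genes). Entirely above DMSO lay 37 and entirely below 3 (25.9% and 30.2% of all genes), and the median log2 change was 0.20. The list of 18 TCA cycle genes also holds Pdha1, Pdhb and Dlat of pyruvate dehydrogenase and Pcx, pyruvate carboxylase, which are not enzymes of the cycle itself. Of the 18, 0 were called (8.31% of all genes were). At an unadjusted limma p under 0.05, 2 were higher and 1, Dlat, was lower (12.3% and 14.5% of all genes). Entirely above DMSO lay 2 and entirely below 9 (25.9% and 30.2%), with a median of −0.25. Fh1, fumarase, had 129 and 106 TPM with R406, against 67.0 and 60.5 TPM with DMSO (log2 change 0.87, adjusted limma p 0.0658). Citrate synthase, Cs, had 77.8 and 73.4 TPM with R406, against 98.6 and 97.7 TPM with DMSO.

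Of 5 listed genes for reactive oxygen and hydrogen sulphide oxidation at the chain, 1 was called higher and 1 lower (4.26% and 4.05% of all genes). Entirely above DMSO lay 2 and entirely below 2 (25.9% and 30.2% of all genes). Ucp2, an inner membrane carrier of the uncoupling protein family, had 22.8 and 19.0 TPM with R406, against 5.22 and 4.39 TPM with DMSO (log2 change 1.92, adjusted limma p 0.0174). Sqor, which oxidises sulphide and passes its electrons to ubiquinone, had 2.32 and 1.66 TPM with R406, against 10.8 and 7.49 TPM with DMSO (−1.75, adjusted limma p 0.0275). The macrophage, epithelial and endoderm markers given above differed between the same libraries, and their part in these values was not tested.

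Nfatc1 peaks were looked for at the members' start sites, as peaks of the authors' lists whose summit lay within 1000 bases. Of the 67 nuclear members with a promoter entry, 48 (71.6%) had one in the R406 library and 31 (46.3%) in the DMSO library, against 55.8% and 38.8% of the tested genes with an entry. Both lists held 29 of the members, the R406 list alone 19, the DMSO list alone 2 (Uqcrfs1 and Cox7a1) and neither list 17. With 1 library per condition there is no test, and the lists differ in length, with 36885 peaks for R406 and 21246 for DMSO, so a peak in one list alone shows no change at that gene. By complex, a peak was present for 24 of 32 matched members of complex I in the R406 list and 15 in the DMSO list, for 2 and 0 of 3 in complex II, for 3 and 2 of 5 in complex III, for 8 and 6 of 11 in complex IV, and for 10 and 7 of 15 in complex V. Most lay close to the start, with a median distance of 156 bases from summit to start in the R406 list and 153 bases in the DMSO list.

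The authors' fold enrichment, which ranks peaks only within a list, was highest among members for Cycs in the R406 list, at 31.6, with a summit 138 bases after the start of transcription. The promoter of this gene is printed above. In the DMSO list it was highest for Ndufs8, at 19.7, and Cycs stood at 9.47. The medians were 13.0 over 48 members in the R406 list and 8.74 over 31 in the DMSO list. Of the genes with an NRF1 core printed above, Ndufa8, Ndufa11, Uqcr11, Atp5g2, Atp5l and Cycs had a peak in the R406 list, while Cox6a1 and Atp5k had none in either. The 2 members called in RNA, Ndufa4l2 and Cox4i2, had no promoter entry, so neither the peak search nor the motif search covered them. Of the complex I subunits given above that were not called in RNA, Ndufb2 and Ndufc2 had no peak in either list and Ndufs6 had one in both. On mitochondrial DNA each list held 2 peaks. In the R406 list they spanned bases 11848 to 13007, within mt-Nd5, with a fold of 1.36, and bases 15489 to 16178, past the last gene, with a fold of 2.79. In the DMSO list they spanned 12060 to 13007 with a fold of 1.53, and 15619 to 15875 with a fold of 1.57. Mitochondrial DNA is present in many copies per cell and lies outside the nucleus.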

How the data were processed

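The authors deposited TPM per gene for 4 RNA libraries, as a table and as single files with the same values. Per the submitters' processing notes, HISAT2 2.1.0 and StringTie 2.0 were used on mm10, but their settings and the annotation are not stated there, and TPM keeps no read depth. The NEBNext Ultra kit named in the labels' protocols does not mark strand. For CUT&Tag the authors deposited 1 peak list per library, with a fold enrichment, −log10 p and q values and a score per peak, and per the submitters' processing notes Bowtie2 2.2.5 and MACS2 2.1.2 were used. The blank library was not analysed here.

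Groups came from the sample titles. The members and all gene lists were chosen with earlier results of these data known. Limma 3.58.1 in R 4.3.3 was run on log2(TPM + 1) with a variance trend, without a replicate block, two-sided, over the 13929 genes that averaged 1 TPM or more, and was tested on simulated data. Lists were described by counts and medians, without a test. Named were all mitochondria-encoded members, all called nuclear members, up to 3 nuclear members per complex with the smallest p and the 1 with the highest mean TPM, fixed isoform groups and Cycs. Others, such as Ndufs6, Ndufs1, Ndufs7, Ndufs8, Sdhb, Uqcrfs1, Cyc1, Atp5a1, Atp5b and single members of lists, were chosen after their values were seen. Start sites and promoters came from RefSeq GRCm38.p6, and 67 of 84 nuclear members had a promoter entry. Alternatives changed the pseudocount to 0.1, the filter to 5 TPM or none, the scaling (quantile, median centring, totals without mitochondrial genes, also without ribosomal protein and Gm genes), the trend, the block, the peak window to 500 or 3000 bases and the peak limit to a −log10 q of 10, and left out each library. Totals without mitochondrial genes and their nuclear copies, and Ndufa4 counted with complex IV, were added after the data were seen.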

Additional observations from a re-analysis of the deposited data

How the results depend on the processing

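The 13 mitochondria-encoded members had a log2 change under 0 under every scaling, and the 2 nuclear calls were kept with each library left out. Nuclear members called higher (2) numbered 3 under median centring, with Ndufb2 added, 1 above 5 TPM, where Ndufa4l2 is not tested, and 0 without a filter, where 0 of all genes passed and 5394 had an unadjusted limma p under 0.05. The calls higher (593) and lower (564) over all genes were 311 and 332 above 5 TPM, 0 and 0 without a filter, and 159 (without DMSO replicate 1) to 914 (without R406 replicate 2) and 158 (without DMSO replicate 1) to 574 (without R406 replicate 1) with 1 library left out. Median centring gave 933 higher, quantile normalization 850 lower, and totals without mitochondrial genes and copies 969 lower. Quantile normalization also called 2 mitochondria-encoded members lower, mt-Atp6 and mt-Nd5. Leaving out 1 library gave 0 to 1 mitochondria-encoded (mt-Nd4l, without R406 replicate 2) and 0 to 1 nuclear members lower (Cox7a2l, without R406 replicate 1).

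With a replicate block, 26 nuclear members were called higher, 1 lower and 12 mitochondria-encoded members lower, against 2128 higher and 2535 lower over all genes. No label ties equal numbers together, and the correlation of 0.56 above is a hint from the data and not from the design.

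The nuclear median of 0.22 was 0.17 by quantile, 0.26 by median centring, 0.16 without mitochondrial genes, 0.12 without their copies too, 0.25 without mitochondrial, ribosomal protein and Gm genes, and 0.14 to 0.22 with 1 library left out. The median of all genes (−0.02) moved to −0.01, 0.03, −0.07, −0.10 and 0.01 under those scalings, and from −0.14 (without R406 replicate 1) to 0.09 (without R406 replicate 2) with 1 library left out. Peaks with a −log10 q of at least 10 left 39 members in the R406 list and 18 in the DMSO list.

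Log2 changes near 0 turned sign. By quantile they were −0.071 for Cox6a1, −0.0038 for Cox6b1 and −0.090 for Atp5g3. Totals without mitochondrial genes gave −0.0080 for Atp5g3, and without their copies too −0.042 for Atp5g3 and −0.0084 for Cox6b1. With 1 library left out the ranges were −0.74 to 0.61 for mt-Nd3, −0.27 to 0.11 for Ndufa1, −0.032 to 0.53 for Uqcrh, −0.046 to 0.39 for Uqcr10, −0.071 to 0.52 for Cox4i1, −0.057 to 0.23 for Cox6b1, −0.23 to 0.59 for Cox7a1, −3.32 to 0.10 for Cox7a2l, −0.14 to 0.65 for Atp5g2 and −0.052 to 0.16 for Atp5g3. The causes were not tested, and read depth is unknown.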
